A study of Mus musculus with 18 samples.

Results

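The genes described here handle nucleotides and adenosine outside the cell. The set lists 9 genes, Nt5e, Entpd1, Entpd5, Entpd8, Ada, Adora1, Adora2a, Adora2b and Slc29a1, and a probe set belongs to it when the array's annotation gives it 1 of these symbols and no other. Of the 9, 6 genes were found, with 7 probe sets among the 41345 of the array and among 22180 genes named by a single symbol. The adenosine receptors Adora1, Adora2a and Adora2b were not analysed here. The set was proposed with the differences between donor groups in intestine and liver already known, including the rank of Nt5e in intestine given below. Those differences are therefore given as a description without a test. Tests are kept for other genes and for the contrast of liver with intestine. The lists of other genes were also made with earlier results of these data known. Their p-values and shares are therefore not independent of those results.

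The samples were small intestines and livers of mice that had been raised germ-free, that is without microbes, and then given gut microbiota from a donor. OMT recipients were given microbiota of old donors, 2 years old by the protocol and about 24 months by the design text. YMT recipients were given microbiota of young donors, 4 weeks old by the protocol and 5 to 6 weeks by the design text. All recipients, in both groups, were 5 to 6 weeks old at the transfer, carried the genotype C57BL\6 and were followed for 8 weeks, and their age at sampling is given as 12 weeks in one label and 13 weeks in another. Each tissue contributed 5 OMT and 4 YMT arrays, 1 array per biological replicate, so the p-values below rest on the spread among these samples, and their number limits the precision. How many donors or cages stood behind a group was not used here, so a shared donor or cage and donor age cannot be told apart. Levels are log2 array values, on which 1 unit is a doubling of signal, and a difference is the OMT mean less the YMT mean, followed by its standard error (SE), unless stated otherwise. The enterocyte marker list averaged 11.21 to 12.29 on the intestine arrays and 5.82 to 6.21 on the liver arrays, and the hepatocyte list 5.80 to 6.26 and 11.92 to 12.32, so both tissue labels held.

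ATP released by stressed or dying cells and by bacteria acts as a danger signal, and a chain of surface enzymes turns it into adenosine, which restrains immune cells and acts on the epithelium. Ectonucleoside triphosphate diphosphohydrolases such as Entpd1 (CD39) and Entpd8 cut ATP and ADP to AMP, and Nt5e (CD73), an enzyme anchored to the outer membrane by a lipid, cuts AMP to adenosine. Adenosine is then bound by G protein-coupled receptors, converted to inosine by adenosine deaminase (Ada) or carried across the membrane by the equilibrative transporter Slc29a1. Entpd5 is a relative of Entpd1 that resides in the endoplasmic reticulum, where it hydrolyses UDP and aids the folding of glycoproteins. In the small intestine, genes of this chain are known to be high at the tips of the villi.

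The sequence before the start of transcription is shown for Nt5e, Ada and Entpd5, the members with the widest differences between donor groups in intestine (Nt5e and Ada) and in liver (Nt5e and Entpd5). Each is the 250 bases before the gene's start in RefSeq, build GRCm38.p6, written in the direction of the gene. The window of Nt5e lies at chr9:88327359-88327608 on the plus strand, that of Ada at chr2:163750240-163750489 on the minus strand and that of Entpd5 at chr12:84409030-84409279 on the minus strand. Capitals mark matches on either strand to motifs that were searched by their letters.
Nt5e: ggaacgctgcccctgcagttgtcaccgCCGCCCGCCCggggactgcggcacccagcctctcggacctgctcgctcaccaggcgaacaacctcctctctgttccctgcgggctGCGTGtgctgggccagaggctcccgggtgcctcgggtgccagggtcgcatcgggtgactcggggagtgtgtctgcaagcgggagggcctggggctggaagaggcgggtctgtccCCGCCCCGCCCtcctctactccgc
Ada: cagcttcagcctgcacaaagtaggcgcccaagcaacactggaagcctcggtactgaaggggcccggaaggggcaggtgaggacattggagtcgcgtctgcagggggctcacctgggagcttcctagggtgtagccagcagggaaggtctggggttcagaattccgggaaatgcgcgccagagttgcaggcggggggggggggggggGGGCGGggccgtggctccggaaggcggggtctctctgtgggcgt
Entpd5: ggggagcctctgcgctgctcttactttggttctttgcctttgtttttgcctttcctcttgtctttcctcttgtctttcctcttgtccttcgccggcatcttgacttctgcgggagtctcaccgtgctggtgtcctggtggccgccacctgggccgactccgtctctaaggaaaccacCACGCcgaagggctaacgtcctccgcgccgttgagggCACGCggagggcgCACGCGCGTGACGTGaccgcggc
The GC box, bound by SP and KLF factors, was searched as GGGCGG. The core bound by hypoxia-inducible factors was searched in the form ACGTG and also in the form GCGTG. For CREB the full site TGACGTCA was searched beside its shorter core, which is spelled TGACG. AP-1 was searched as TGANTCA and a GATA site as the letters AGATAA. The HNF4 core was searched as CAAAGTCCA and the TATA box as TATAAA. Nt5e held 4 GC boxes, in overlapping pairs that begin 223 and 219 and 24 and 19 bases before the start, and 1 GCGTG. Ada held 1 GC box, 44 bases before its start. Entpd5 held no GC box but 4 GCGTG cores, which begin 73, 36, 23 and 18 bases before the start, with 1 TGACG that overlaps both the last of them and the only ACGTG. Of 32536 windows of this length, 33% held a GC box and 28.3% the form GCGTG of the hypoxia core. The form ACGTG was in 16.7% and the short CREB core in 17.9%. The full CREB site was in 1.56% of windows, the AP-1 site in 6.73%, the GATA site in 9.97%, the HNF4 core in 0.387% and the TATA box in 12.3%. None of these last 5 motifs was found in the 3 sequences above, which says only that their letters are not in these windows.

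Nt5e differed most between the donor groups of all members and in both tissues. In the intestine its level was 8.45, 9.72, 9.55, 9.82 and 9.27 on the OMT arrays and 5.49, 7.18, 7.26 and 6.73 on the YMT arrays. Every OMT intestine lay above every YMT intestine, with a gap of 1.19 between the groups. The means were 9.36 ± 0.55 (SD, n = 5) and 6.67 ± 0.82 (SD, n = 4), a difference of 2.70 ± 0.38 (SE), or 6.48-fold, which held rank 1 among the 13238 genes compared in intestine. Without YMT replicate 1, the lowest array, the difference was 2.31. In the liver the OMT arrays held 5.24, 5.35, 6.19, 6.04 and 5.85, and the YMT arrays 4.77, 5.11, 4.90 and 4.97. Here too the groups did not overlap, though by only 0.13, and the difference was 0.80 ± 0.19, or 1.74-fold. Ordered by mean, Nt5e was highest in OMT intestine, then YMT intestine (6.67), OMT liver (5.73 ± 0.42) and YMT liver (4.94 ± 0.14). The ranges of YMT intestine and OMT liver overlapped, and the other neighbours in this order did not.

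Ada, which removes the product of Nt5e, had the next largest difference in intestine, in the same direction. Its level was 10.64, 11.53, 11.47, 11.48 and 11.40 in OMT intestines and 8.44, 10.51, 10.92 and 10.05 in YMT intestines. OMT replicate 1, at 10.64, lay below YMT replicate 3, at 10.92, so the groups overlapped. The means were 11.30 ± 0.37 and 9.98 ± 1.09, and the difference was 1.32 ± 0.43, or 2.5-fold. Without YMT replicate 1 it was 0.81, smaller by more than 1.5 times. In the liver Ada was near the arrays' medians of 4.12 to 4.22 in both groups, at 3.96 to 4.73 in OMT and 4.51 to 5.07 in YMT, with a difference of -0.30 ± 0.16.

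**Figure D1:**
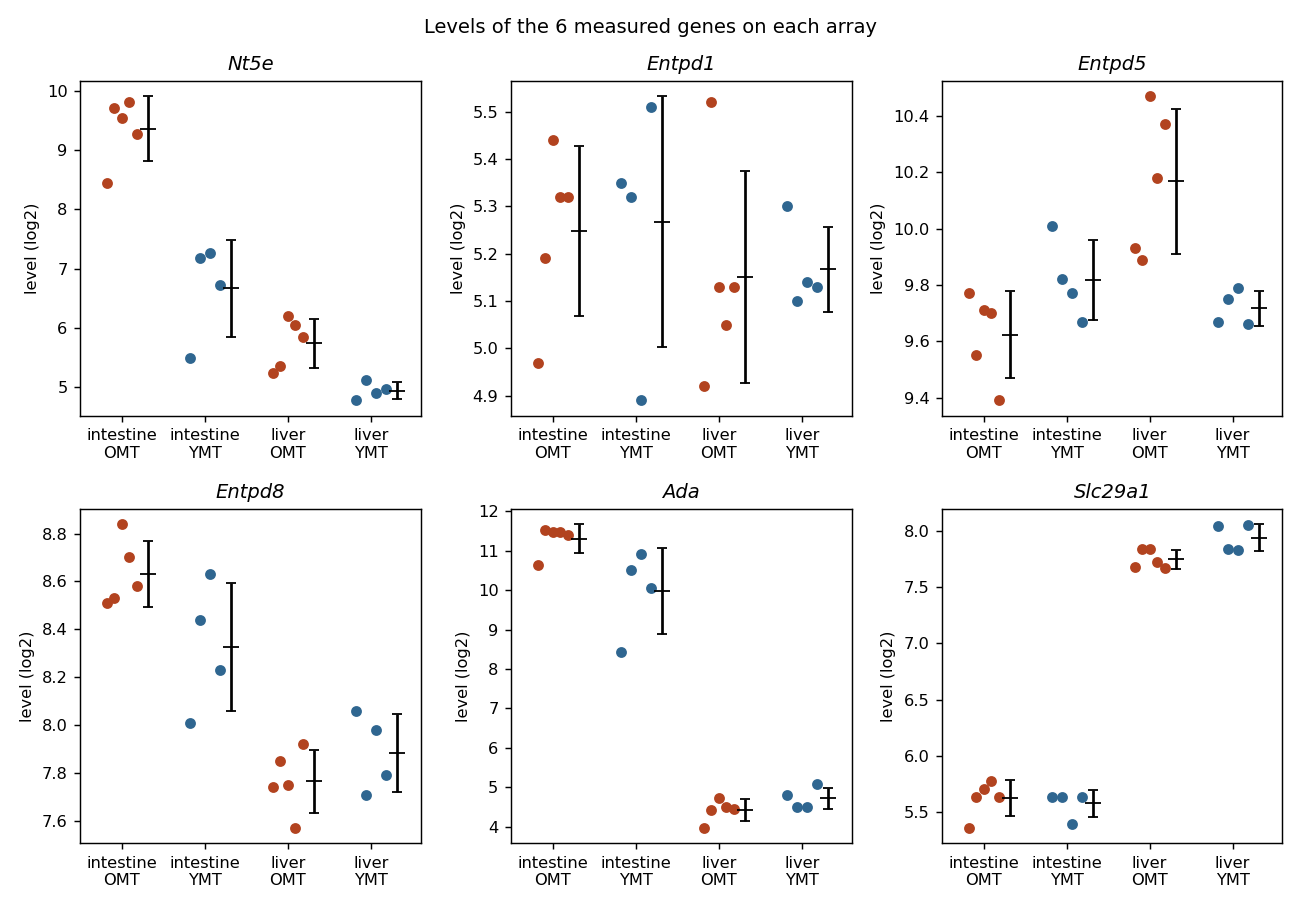
Level of the 6 measured genes on each of the 18 arrays (vertical axis, log2, scaled separately for each gene), by tissue and donor group. Dots are arrays in the order of their replicate number, and bars beside them give the mean and SD. The OMT and YMT dots are apart for Nt5e in both tissues and for Entpd5 in liver, and overlap elsewhere.

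The arrays with low Nt5e were also those with low Ada. In the OMT group both genes were lowest on replicate 1, and in the YMT group both were lowest on replicate 1 and highest on replicate 3. After each array's value was taken as its deviation from the mean of its own donor group, Nt5e and Ada correlated at r = 0.95 over the 9 intestine arrays, and at r = 0.90 over 8 arrays without YMT replicate 1. These values are descriptions, since all genes on an array share 1 RNA extract. Villus tip genes were low on the same arrays: the list of villus tip genes averaged 8.72 on YMT replicate 1 against 9.67, 9.86 and 9.50 on YMT replicates 2, 3 and 4, and 9.52 on OMT replicate 1 against 9.90 to 10.09 on the others. The enterocyte list was at 11.21 on YMT replicate 1 and at 11.76 to 12.17 on the other YMT arrays, but OMT replicate 1, at 12.21, was not low among the OMT arrays (11.99 to 12.29). How far tissue composition or the sampled stretch of intestine enters the Nt5e and Ada differences was not tested. In whole tissue, fewer cells of a type and less RNA per cell cannot be told apart.

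**Figure D2:**
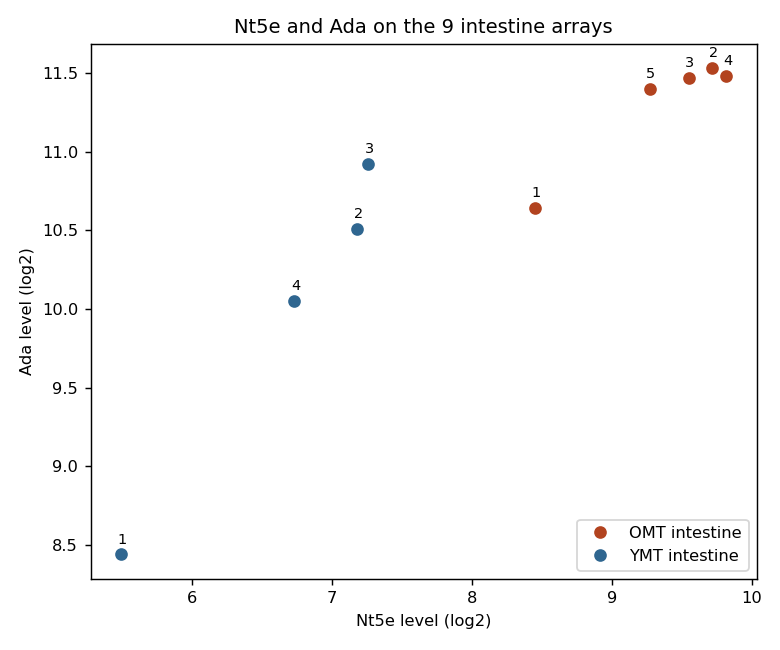
Level of Ada (vertical axis, log2) against level of Nt5e (horizontal axis, log2) on the 9 intestine arrays, with the replicate number beside each dot. The YMT arrays lie at Nt5e 5.49 to 7.26 and the OMT arrays at 8.45 to 9.82, and replicate 1 is lowest for both genes in each group.

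Villus tip genes outside the set did not pass the test. Of 11 villus tip genes tested in intestine, 10 had a positive difference, with a median of 0.24 against -0.02 over all genes, and limma called 0 of them, with 2 at an unadjusted p under 0.05. Regional genes were unequal: of 7 genes of the upper small intestine, Ces1g (1.70 ± 0.36, adjusted p = 0.0312) and Rbp2 (1.29 ± 0.29, adjusted p = 0.0362) rose and the iron exporter Slc40a1 fell by 2.01 ± 0.46 (adjusted p = 0.0394). Differences were positive for 5 of the 7, including the fatty acid binding protein Fabp1, named after its value was seen (2.17 ± 0.67, adjusted p = 0.0938). The list averaged 6.89 to 7.41 in OMT and 6.22 to 6.76 in YMT intestines, without overlap. Of 6 genes of the lower small intestine, limma called 0, none had an unadjusted p under 0.05, and their median was -0.19. The T cell and NK cell list averaged 6.39 to 6.93 in OMT and 6.99 to 7.49 in YMT intestines, groups that did not overlap, with 2 of 8 genes lower in OMT, Gzma (-0.96 ± 0.22) and Gzmb (-1.43 ± 0.27), and 0 higher. The goblet cell list did not overlap either, at 10.33 to 10.86 in OMT and 10.89 to 11.12 in YMT, with all 8 genes lower in mean, 5 of them at an unadjusted p under 0.05, and 1 called, Clca1 (-0.82 ± 0.16, adjusted p = 0.0245). Limma called 42.9% of the upper intestine list, 25% of the T cell and NK cell list and 12.5% of the goblet cell list. Over all genes it called 4.14%. The part of these 3 lists in the Nt5e and Ada differences was not tested.

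The ATP-cutting members showed much smaller differences than Nt5e. Entpd8, the form found on the apical membranes of hepatocytes and enterocytes, was at 8.51, 8.53, 8.84, 8.70 and 8.58 in OMT intestines and 8.01, 8.44, 8.63 and 8.23 in YMT intestines. These groups overlapped through YMT replicate 3 alone, and the difference was 0.30 ± 0.13, or 1.23-fold. In the liver Entpd8 lay at 7.57 to 7.92 in OMT and 7.71 to 8.06 in YMT (-0.12 ± 0.096). Entpd1, the main ATP-cutting enzyme of vessels and leukocytes, lay between 4.89 and 5.52 on every array of either tissue, and its differences were -0.0195 ± 0.13 in intestine and -0.0175 ± 0.11 in liver. The endothelial list was not equal between the livers: it averaged 6.19 to 6.35 in OMT and 6.50 to 6.71 in YMT. Of its 10 genes 4 were lower and 0 higher, or 40% against 19.2% of all genes. That list was at 4.66 to 4.99 and 4.63 to 5.24 in intestine. Leukocyte lists differed among themselves in liver. The macrophage and Kupffer cell list overlapped, at 6.77 to 7.07 in OMT and 6.82 to 7.07 in YMT, with 1 of 9 genes higher and 2 lower. The T cell and NK cell list, below the arrays' medians, did not overlap (3.494 to 3.576 in OMT, 3.596 to 3.801 in YMT). Lists of B and plasma cells and of neutrophils overlapped. The part of these lists in the Entpd1 values was not tested.

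Entpd5 was higher in the OMT liver. Its level there was 9.93, 9.89, 10.47, 10.18 and 10.37, against 9.67, 9.75, 9.79 and 9.66 in YMT livers. The groups did not overlap, by 0.10, and the difference was 0.45 ± 0.12, or 1.37-fold. OMT livers 1 and 2 were the lowest OMT livers for both Entpd5 and Nt5e, so leaving both out could only widen these differences. Without both arrays they were 0.62 for Entpd5 and 1.09 for Nt5e. In the intestine the Entpd5 difference had the other sign, -0.19 ± 0.099, with groups that overlapped (9.39 to 9.77 in OMT and 9.67 to 10.01 in YMT).

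Slc29a1, the adenosine transporter, had a pair of probe sets. The brighter, used here, was at 5.36 to 5.78 in OMT intestines and at 5.40 to 5.64 in YMT intestines, with a difference of 0.046 ± 0.097. In the liver it was at 7.68, 7.84, 7.84, 7.72 and 7.67 in OMT and 8.04, 7.84, 7.83 and 8.05 in YMT. The groups overlapped only between 7.83 and 7.84, and the difference was -0.19 ± 0.078. The dimmer probe set lay at 2.36 to 3.71 on all arrays, below every array's median.

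All 6 members passed the filter on low levels in both tissues. Of them, 1 was past the threshold of the fit over all genes in intestine (Nt5e, higher), where 4.14% of 13238 genes were called, 1.04% higher and 3.1% lower, and 2 in liver (Nt5e and Entpd5, higher), where 19.2% of 13380 were called, 10.4% higher and 8.78% lower. Groups did not overlap for 1 member in intestine and 2 in liver, against 9.65% and 18.1% of all genes. These contrasts were in view when the members were chosen, so nothing is read from the counts.

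**Figure D3:**
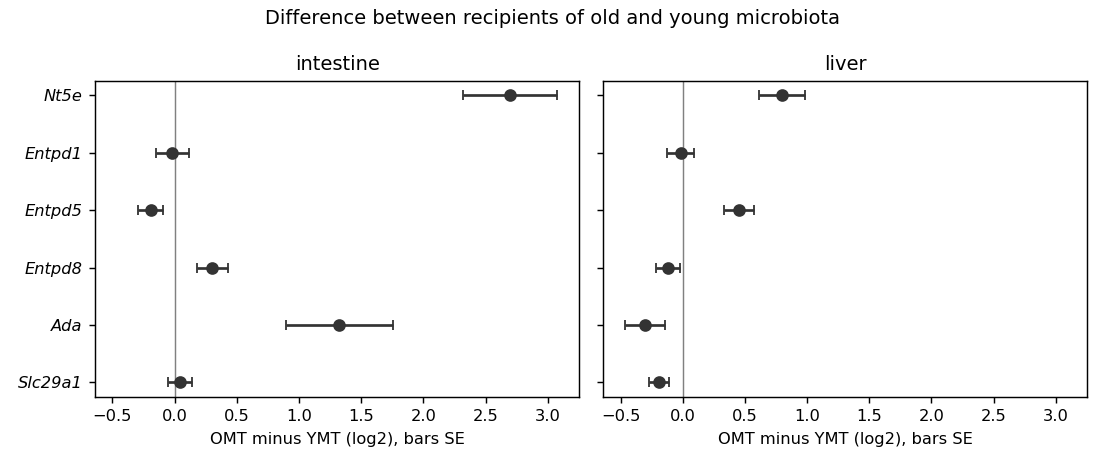
Difference between OMT and YMT recipients for each member (horizontal axis, log2, bars are SE) in intestine and liver, without a test. Nt5e lies at 2.70 in intestine and 0.80 in liver, Ada at 1.32 and -0.30, and the other 4 genes between -0.19 and 0.45.

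The rest of the purine pathway shows how far such differences extended. A list of 68 other genes covered ectoenzymes, nucleoside transporters, receptors, channels that release ATP and intracellular enzymes, and 62 of them were on the array under a single symbol. In intestine limma called 1 of the 48 tested, or 2.08% against 4.14% of all genes, with a median difference of -0.07. With all 18 arrays in the fit the count was 8 of 48, 2 higher and 6 lower, against 1445 of 13238 over all genes. With array weights it was 5 of 48, against 1172 of 13238. Whether the share lay below or above that of all genes thus depended on the fit. The gene called in the first of these fits was the ATP-gated channel P2rx4, which fell by 0.61 ± 0.093 (adjusted p = 0.00862). P2rx4 was at 7.96, 8.05, 8.05, 8.13 and 8.03 in OMT intestines and at 8.94, 8.59, 8.52 and 8.56 in YMT intestines. The call held with each of the 9 arrays left out, at adjusted p of at most 0.0313. In liver P2rx4 also fell, by 0.47 ± 0.075 (adjusted p = 0.00162), from 8.38 ± 0.13 to 7.91 ± 0.052.

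The widest intestinal differences among the other pathway genes were those of Slc28a1 and Slc28a2, concentrative transporters that carry nucleosides into the cell with sodium, and neither passed. They, Slc28a3 and Enpp3 are named after their values were seen. Slc28a2, the purine-preferring form, was at 7.40, 8.84, 8.63, 8.78 and 8.69 in OMT and 5.71, 7.49, 7.86 and 7.41 in YMT intestines, a difference of 1.35 ± 0.43 (adjusted p = 0.104). Like Nt5e and Ada, it was lowest on replicate 1 of each group. Slc28a1, the pyrimidine-preferring form, differed by 1.37 ± 0.47 (adjusted p = 0.121). Slc28a3, the third concentrative transporter, differed the other way, by -0.63 ± 0.19 (adjusted p = 0.0802). The ectonucleotidase Enpp3 ranged from 9.94 to 11.31 in OMT and from 8.62 to 11.35 in YMT (0.61 ± 0.49, adjusted p = 0.486). Limma called 0 of 6 nucleoside transporters in intestine, with 3 higher and 2 lower at an unadjusted p under 0.05.

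In liver 15 of 46 other purine genes were called, 6 higher and 9 lower, or 32.6% against 19.2% of all genes. The hepatocyte list averaged 11.92 to 12.14 in OMT and 12.26 to 12.32 in YMT livers, without overlap. Of its 10 genes 2 rose and 1 fell, the glucose phosphatase G6pc (-3.24 ± 0.29), or 30% against 19.2% of all genes. Differences were positive for 5 of the 10, and the median difference was -0.016. The gap between the list averages was thus not shared by its genes as a whole. The list's part in the liver calls was not tested. The count of 15 depended on single arrays: it was 9 of 46 without OMT replicate 5, YMT replicate 2 or YMT replicate 3. Over all genes the calls fell too, in that order to 1875 of 13339, 1790 of 13254 and 2037 of 13263. Ectoenzymes held 7 of the 15 calls among 10 tested, or 70%. The share was 22.2% of receptors, 33.3% of release channels, 25% of intracellular enzymes and 0% of nucleoside transporters. Enpp3 fell by 0.87 ± 0.12 (adjusted p = 0.00084), from 9.39 ± 0.24 in YMT to 8.52 ± 0.18 in OMT. Its relative Enpp4 fell by 0.65 ± 0.094 and Acpp, an acid phosphatase whose membrane form cuts AMP to adenosine as Nt5e does, fell by 1.13 ± 0.20 (adjusted p = 0.00326). Acpp was at 5.03, 5.29, 5.54, 5.61 and 5.66 in OMT livers and 7.17, 6.61, 6.32 and 6.12 in YMT livers, so these groups were apart in the direction opposite to Nt5e. Alpl, the alkaline phosphatase of liver, bone and kidney that also removes phosphate from nucleotides, rose by 0.84 ± 0.11 (adjusted p = 0.00061), from 6.15 to 6.43 in YMT to 6.95 to 7.46 in OMT. The calls of Enpp3, Enpp4, Acpp and Alpl held with each of the 9 arrays left out. Entpd7, a relative of Entpd1 inside the cell, rose by 0.77 ± 0.22 (adjusted p = 0.0298), and kept its call in 3 of 9 such fits. Enpp5 (-0.47 ± 0.12) kept it in 5 and the peptidase Dpp4 (-0.24 ± 0.064), which is outside the naming rule and was named after its values were seen, in 4.

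The other hepatic calls lay among receptors, release channels and intracellular enzymes. Besides P2rx4, the UTP and ATP receptor P2ry4 fell by 0.38 ± 0.097 (adjusted p = 0.0202), making 2 of 9 receptors, 0 of them higher, with 4 lower at an unadjusted p under 0.05. That is 22.2% of receptors, near the 19.2% of all genes called in liver. Of the connexins, Gjb2 rose by 0.51 ± 0.087 (adjusted p = 0.00244) and Gjb1 fell by 0.37 ± 0.10 (adjusted p = 0.029). Intracellular enzymes rose in 3 of 16 and fell in 1, or 25%, also near the share of all genes. Ahcy, which splits S-adenosylhomocysteine into adenosine and homocysteine, rose from 8.98 ± 0.26 to 9.87 ± 0.17 (0.89 ± 0.13, adjusted p = 0.000918). Adenosine kinase (Adk), which returns adenosine to AMP, rose by 0.25 ± 0.071 (adjusted p = 0.0292), and the guanine deaminase Gda by 0.34 ± 0.097 (adjusted p = 0.035). The urate oxidase Uox, at the end of purine breakdown, fell from 11.99 ± 0.076 to 11.07 ± 0.20 (-0.92 ± 0.10, adjusted p = 0.000231). Ahcy, Gjb2, Uox and P2rx4 kept their calls with each array left out, while P2ry4 and Adk kept theirs in 5 of 9 fits, and Gda and Gjb1 in 4. Adk also lost its call after median centring (adjusted p = 0.0909) and Gda after quantile normalization (adjusted p = 0.0611). No nucleoside transporter was called among 5 tested, and none had an unadjusted p under 0.05. Probe sets of close relatives, such as Pnp and Pnp2 or the intestinal alkaline phosphatases, can detect each other's transcripts.

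**Figure D4:**
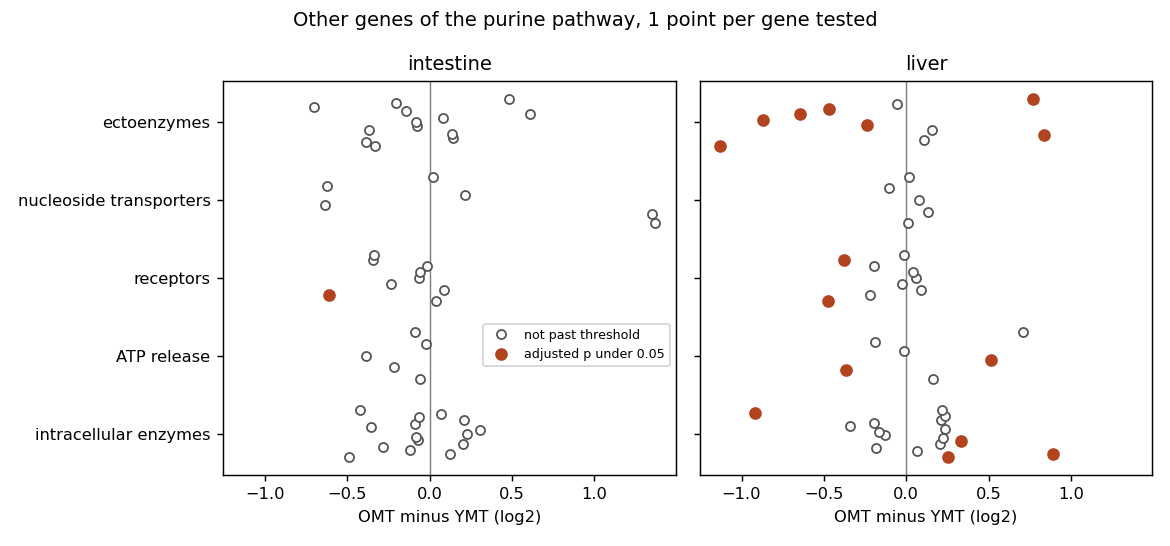
Difference between OMT and YMT recipients (horizontal axis, log2) for other genes of the purine pathway, 1 dot per gene tested, grouped by role. Filled dots passed an adjusted p under 0.05 over all genes of the tissue: 1 of 48 in intestine and 15 of 46 in liver. The pair of dots at 1.35 and 1.37 in intestine are Slc28a2 and Slc28a1.

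The choice of members did not use the contrast of liver with intestine, which was tested in YMT recipients alone. As liver minus intestine, Ada differed by -5.26 ± 0.44 (adjusted p = 1.78e-06), at 4.51 to 5.07 against 8.44 to 10.92 in intestine. Nt5e differed by -1.73 ± 0.33 (adjusted p = 0.000827) and Slc29a1 by 2.36 ± 0.090 (adjusted p = 3.4e-09), at 7.94 ± 0.12 against 5.58 ± 0.12. The tissues did not overlap for these 3 genes, against 70.8% of all genes. With Entpd8 (-0.44 ± 0.14, adjusted p = 0.0136), 4 of 6 members were called, 1 higher and 3 lower in liver. Of 14109 genes 75.7% were called, 23% higher and 52.7% lower, so the members' share is near the background and no result about them. Entpd8 overlapped between the tissues, while Entpd5 (-0.10 ± 0.085, adjusted p = 0.306) and Entpd1 (-0.10 ± 0.13, adjusted p = 0.483) did not pass. The size of these values depends on how the tissues were scaled to each other, which is not stated. Over all genes the median difference of liver minus intestine was -0.30 in the deposited values and 0.054 after quantile normalization over the 8 arrays, and with that scaling Entpd8 was at 0.060 and no longer called (adjusted p = 0.696), Entpd5 was called in the other direction (0.30, adjusted p = 0.00905) and Entpd1 was at 0.21 (adjusted p = 0.149). After median centring Entpd8 was not called either (-0.17, adjusted p = 0.272). In OMT recipients Entpd5 was called as higher in liver (0.54, adjusted p = 0.00147). Without the intestine of YMT replicate 3, Entpd1 was called (-0.23, adjusted p = 0.041). Ada, Nt5e and Slc29a1 kept direction and call under each scaling.

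**Figure D5:**
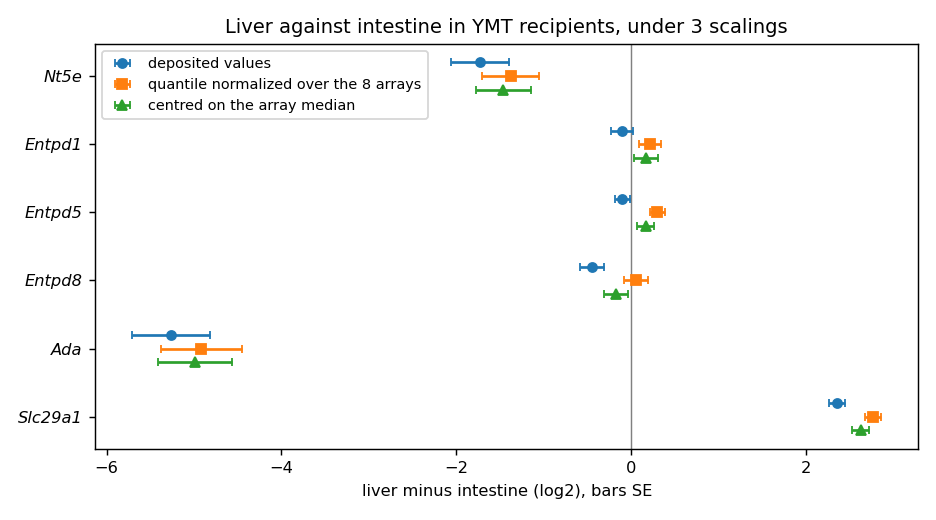
Difference of liver minus intestine in YMT recipients (horizontal axis, log2, bars are SE) for each member under 3 scalings of the 8 arrays. Ada lies near -5, Nt5e between -1.73 and -1.38 and Slc29a1 between 2.36 and 2.78 in each, while Entpd1 and Entpd5 change sign under both other scalings and Entpd8 moves from -0.44 to -0.17 and 0.060.

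The genes whose pattern over the 9 intestine arrays was most like that of Nt5e were found by Pearson's r among 13238 genes. They were Rapgef2, an exchange factor of Rap GTPases (r = 0.972), the immediate early gene Ier5 (0.960), the haem and choline transporter Flvcr2 (0.958), the AP-1 subunit Fosb (0.958) and Rasgef1b, an exchange factor of Ras proteins (0.953). These values include the difference between the donor groups. With each group's mean removed, r was 0.906 for Rapgef2, 0.793 for Ier5, 0.738 for Flvcr2, 0.832 for Fosb and 0.886 for Rasgef1b. Without YMT replicate 1 the same values were 0.781, 0.596, 0.473, 0.775 and 0.851. Of the 5, Flvcr2 differed most between the donor groups, at 7.76 ± 0.23 in OMT and 6.13 ± 0.53 in YMT. With the group means removed the 5 genes held places 56, 320, 510, 191 and 90 among all genes, in the order above. Ada held place 41 over the 9 arrays and place 20 with the group means removed.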

How the data were processed

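Total RNA of each sample, 250 ng, was labelled for 1 Affymetrix whole-transcript array, per the labels' protocols. The table holds log2 expression that the authors deposited; the submitters' processing notes name RMA and Affymetrix Expression Console. Their versions, the build, and whether both tissues were normalized jointly are not stated there. RMA narrows differences of dim probe sets. A log base of 2 was assumed, since values run from 0.30 to 13.50.

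The members and gene lists were chosen with earlier results of these data known. Probe sets were named by the platform annotation where it gives 1 symbol (23521 of 41345), updated through a RefSeq table (23328 found); 1814 with several symbols were not named and 16010 are unnamed here. For each gene the probe set with the highest mean was kept, and it was tested where at least 4 arrays of the comparison held it above their own median. Arrays were compared by limma 3.58.1 (lmFit and eBayes, R 4.3.3), two-sided, with Benjamini-Hochberg adjustment over all genes tested and a threshold of 0.05. Groups came from the sample titles; no arrays were identical. The fit was tested on simulated data with known changes. Figures were drawn with matplotlib 3.10.9.

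Named were all members, up to 4 called purine genes per role, tissue and direction, up to 3 called genes of each other list and tissue, and the 5 genes most like Nt5e. Alternatives were other level filters, eBayes settings, array weights, scalings, probe set summaries, all 18 arrays in the fit, the replicate number as a block, a threshold of 0.10 and each array left out; leaving out OMT arrays 1 and 2 together was added after the data were seen.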

Additional observations from a re-analysis of the deposited data

Results flagged for a closer look

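A single array lay apart from the others of its group in 2 of 28 groups of a member's probe set, where chance alone gives about 1 in 20. Ada was at 10.64 on the intestine of OMT replicate 1 and at 11.40 to 11.53 on the other OMT intestines; Nt5e was also lowest there among OMT intestines, at 8.45. Slc29a1 was at 5.40 on the intestine of YMT replicate 3 and at 5.64 on each of the other 3. None of 48 genes measured in both tissues had donor groups apart in opposite directions in intestine and liver.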

How the results depend on the processing

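The differences of the 6 members between donor groups moved by less than the spread between replicates in all 120 values recomputed in intestine and all 120 in liver. Nt5e was at 2.31 to 2.93 in intestine and 0.68 to 1.09 in liver, and Ada at 0.81 to 1.64 in intestine. The 1.09 came from leaving out OMT livers 1 and 2 together, while leaving out 1 array gave at most 0.92. Many of the recomputed values could not have moved further: other filters, eBayes settings or thresholds leave a difference unchanged. Leaving out 1 array cannot shift it beyond that spread, so these values say little on how firm the differences are. The count of other purine genes called in intestine, 1, became 5 with array weights, 2 after median centring, 8 with all 18 arrays in 4 groups and 5 at a threshold of 0.10; it was 1 with any array left out. Deviations of same-numbered arrays correlated at -0.061 to 0.32 between intestines and -0.18 to 0.092 between livers. Between the tissues these values were 0.013 to 0.13 in YMT and -0.040 to 0.056 in OMT recipients. So few values cannot exclude a pairing by number, and none was used in the main fit. With the replicate number as a block the count was 3 of 48, against 458 of 13238 over all genes. In liver it was 10 of 46, against 1459 of 13380. In the tissue contrast it was 4 of 6 members, against 10626 of 14109. The intestinal differences in that fit were 2.72 ± 0.15 for Nt5e and 1.30 ± 0.25 for Ada. In liver the count of 15 ranged from 9 to 16 with an array left out. In the tissue contrast, with 4 members called, it ranged from 4 to 5. There, quantile normalization turned the sign of Entpd1 (0.21), Entpd5 (0.30) and Entpd8 (0.060), median centring that of Entpd1 (0.17) and Entpd5 (0.17), and OMT arrays in place of YMT arrays that of Entpd5 (0.54); the cause was not tested.

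Over the whole array, 548 calls in intestine became 310 without a level filter, 1172 with array weights, 1445 with all 18 arrays, 1331 at a threshold of 0.10 and 147 to 636 with an array left out (228, 275, 283, 147 and 236 without OMT replicates 2 and 3 and YMT replicates 1, 2 and 4). Without OMT arrays 1 and 2 they were 230. In liver 2563 became 1459 with the block, and in the tissue contrast 10680 became 6961 with the stricter filter. The share of calls higher in OMT was 25.2% in intestine (34.6% after quantile normalization) and 54.2% in liver (43.7%), and that higher in liver 30.4% in the tissue contrast (53.2%, and 47.3% after centring). Few arrays and the narrowing of dim values by RMA limit what can be seen of Ada in liver and of the dimmer Slc29a1 probe set.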

Other observations

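Genes known as targets of hypoxia-inducible factors, which also act on Nt5e, went both ways. In intestine the oxygen-sensing hydroxylase Egln1 rose by 0.43 ± 0.088 (adjusted p = 0.0284) and the carbonic anhydrase Car9 fell by 0.65 ± 0.14 (adjusted p = 0.0316) among 13 tested, with a median of 0.21. That is 15.4% against 4.14% of all genes. At an unadjusted p under 0.05, 5 of the 13 were higher and 5 lower, against 993 and 2020 of all 13238 genes. In liver 4 of 13 rose and 2 fell, or 46.2% against 19.2% of all genes, with a median of 0.096. The glucose transporter Slc2a1 rose by 0.79 ± 0.16 (adjusted p = 0.00694) and the mitophagy gene Bnip3 by 0.93 ± 0.20 (adjusted p = 0.00955), while the pyruvate dehydrogenase kinase Pdk1 fell by 1.01 ± 0.12 (adjusted p = 0.000301). The other calls, named after their values were seen, were rises of P4ha1 (0.76 ± 0.18) and Egln1 (0.23 ± 0.074) and a fall of Ndrg1 (-0.47 ± 0.12).

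Fibroblast and stellate cell markers, cells that can also carry Nt5e, averaged 5.73 to 5.86 in OMT and 5.89 to 6.26 in YMT livers. Of 9 genes 5 were called lower and 1 higher in OMT, or 66.7% against 19.2% of all genes. In intestine limma called 0 of the same 9, with the list at 4.91 to 5.44 in OMT and 5.07 to 5.70 in YMT. The part of these cells in the Nt5e values was not tested.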
